A study of Mus musculus with 6 samples.

Results

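The genes described here are 10 mouse genes of neutrophil recruitment and neutrophil content: the chemokines Cxcl1, Cxcl2 and Cxcl5, the receptors Cxcr2 and Csf3r, and the granule or secreted proteins S100a8, S100a9, Retnlg, Camp and Ltf. They were taken by gene name, with every non-control probe of each, which gave 11 of the 55681 probes and 10 of the 34844 gene names on the array. Camp had 2 probes and each of the others had 1. All 11 were among the 38458 probes that passed the filter on dim signal.

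RNA of inguinal fat, the subcutaneous depot of the groin, was measured on 6 one-colour arrays, 3 for each of 2 groups of male C57BL/6J mice that entered the study at 2 months of age. The DIO_CR_WR mice first ate a high fat diet, 60% fat by energy, for 1 month to become obese. Calorie restriction of some 3 weeks then brought their weight down to that of even-aged chow-fed mice, and they were returned to the high fat diet to regain weight. The mice titled DIO had eaten chow until then and were given the same high fat diet, without limit, during that regain period. Both groups were therefore on high fat diet when the fat was taken, and the comparison concerns a history of obesity and dieting rather than a difference in diet at the time. The protocol and the design text call the regained mice DIO and the others CTR. Groups here follow the sample titles. The labelled ages were 9, 10 and 11 months for DIO_CR_WR 1, 2 and 3, and 6, 7 and 8 months for DIO 1, 2 and 3, so age and group did not overlap. These labels differ by 1 month from sample to sample while the protocol compares even-aged mice, so whether they are true ages is uncertain. The labels do not say whether a sample is 1 mouse, and p-values measure only the spread between these samples.

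Neutrophils are short-lived white blood cells that leave the blood within hours of a tissue being disturbed. Cxcl1, Cxcl2 and Cxcl5 belong to the CXC chemokines with a glutamate-leucine-arginine motif, which are secreted by macrophages, endothelium and stromal cells and draw neutrophils through the receptor Cxcr2. Csf3r is the receptor for granulocyte colony-stimulating factor, which drives neutrophil production. S100a8 and S100a9 form calprotectin, a calcium-binding alarmin that fills the neutrophil cytoplasm, and signal through Tlr4. Retnlg is a resistin-like secreted protein of mouse neutrophils, Camp is cathelicidin, an antimicrobial peptide precursor, and Ltf is lactoferrin, an iron-binding protein of the specific granules that glands also secrete. In fat, neutrophils are among the first immune cells to enter on a high fat diet. In RNA of a whole tissue, more cells of a type and more RNA per cell cannot be told apart.

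Cxcl1 and Cxcl2 are the classic targets of NF-kB among these genes, and their promoters are shown because both carry the same uninterrupted stretch. Each is the 250 bases before the transcription start of the RefSeq promoter table on GRCm38.p6, plus strand, at chr5:90890995-90891244 for Cxcl1 and chr5:90903649-90903898 for Cxcl2. Capitals mark 2 overlapping matches to the kappaB decamer.
Cxcl1: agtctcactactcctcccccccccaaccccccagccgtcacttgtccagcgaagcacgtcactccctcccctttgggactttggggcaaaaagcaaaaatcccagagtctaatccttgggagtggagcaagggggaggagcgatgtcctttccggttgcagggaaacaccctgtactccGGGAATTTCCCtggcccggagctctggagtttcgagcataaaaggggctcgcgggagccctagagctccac
Cxcl2: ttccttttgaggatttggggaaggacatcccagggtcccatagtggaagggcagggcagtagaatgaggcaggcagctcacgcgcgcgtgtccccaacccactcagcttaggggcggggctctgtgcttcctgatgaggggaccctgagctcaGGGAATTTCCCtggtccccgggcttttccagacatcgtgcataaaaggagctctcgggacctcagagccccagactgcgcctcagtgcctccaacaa

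The first match began 71 bases before the start in Cxcl1 and 97 bases before it in Cxcl2. On both strands the decamer was found in 7.25% of the 32851 promoters of the table (2382). Of the other members in the table, Csf3r had 1 match, and Camp, Cxcr2, Ltf, Retnlg, S100a8 and S100a9 had none in this window. The C/EBP motif TTGCNNAA, searched on both strands, was in the Ltf promoter at 75 bases, the S100a9 promoter at 236 bases and the Retnlg promoter at 246 bases before the start, and in 9.56% of all promoters. TATAAA on the strand of the gene lay 30 bases before the start of S100a8, and was present in 7.59% of promoters. These matches describe letters and are not measured binding.

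Signals are given as a percent of the 75th percentile of the same array (P75), and the level of one probe says nothing about that of another. That percentile was 5403 to 6369.8 intensity units on the DIO_CR_WR arrays and 4108 to 4452 on the DIO arrays. The share of probes called well above background was 51.1 to 65.6% in DIO_CR_WR and 68.2 to 79.2% in DIO, so dim probes were measured less often in DIO_CR_WR. The lowest signal well above background was 5.79, 2.31 and 1.67% of P75 on DIO_CR_WR 1, 2 and 3. It was 1.29, 0.74 and 0.71% on DIO 1, 2 and 3. A value near background can therefore be higher in percent of P75 on a DIO_CR_WR array. Of the listed genes well above background on no array, Il17a, Ccl20, Olfm4, Elf5 and Cxcl3 were higher in DIO_CR_WR without overlap. Il1a and S100a7a overlapped, and Cxcl15 lacked a value on DIO_CR_WR 1. Il17a had 1.16, 0.52 and 0.37% in DIO_CR_WR 1, 2 and 3, against 0.26, 0.16 and 0.15% in DIO 1, 2 and 3. For a dim probe, a lack of overlap therefore does not by itself show a difference in expression. Slide 1 carried all 3 DIO_CR_WR arrays and DIO 1, and slide 2 carried DIO 2 and DIO 3. A fit with the slide as a block therefore rests on DIO 1 alone as the comparison. No array was saturated, and the adipocyte markers Adipoq (log2 fold change 0.16 ± 0.32 SE), Fabp4, Plin1, Cidec, Lep and Pnpla2 were bright on every array, with 0 of 6 differing between groups at an unadjusted p under 0.05.

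Of the 11 member probes 5 were higher in DIO_CR_WR at an unadjusted p under 0.05 (Cxcl1, Cxcl2, Cxcl5, S100a8 and Ltf), and 1, Csf3r, was lower (limma, two-sided). Over all probes tested 5.29% (2036) were higher and 21% (8063) lower by that rule. None of the 38458 probes passed an adjusted p of 0.05 (limma with Benjamini-Hochberg adjustment; the smallest was 0.118), and so 0 members did. The same 6 probes were those whose DIO_CR_WR and DIO arrays did not overlap, 5 higher and 1 lower, against 7.21% and 25.9% of all probes. The median log2 fold change was 1.02 over the member probes and −0.19 over all probes tested. With arrays scaled to their spike-in controls instead, the median over all probes was 0.31 and the split became 7986 higher and 1131 lower, so a fold is best read against that shift. With the slide as a block, 3 members were higher (Cxcl1, Cxcl2 and Cxcl5) and 0 lower, against 4.35% and 5.71% of all probes. That fit sets the DIO_CR_WR arrays against DIO 1 alone, on which neither Cxcl2 nor Cxcl5 was well above background, so of the 3 only Cxcl1 was compared with a measured DIO value.

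**Figure D1:**
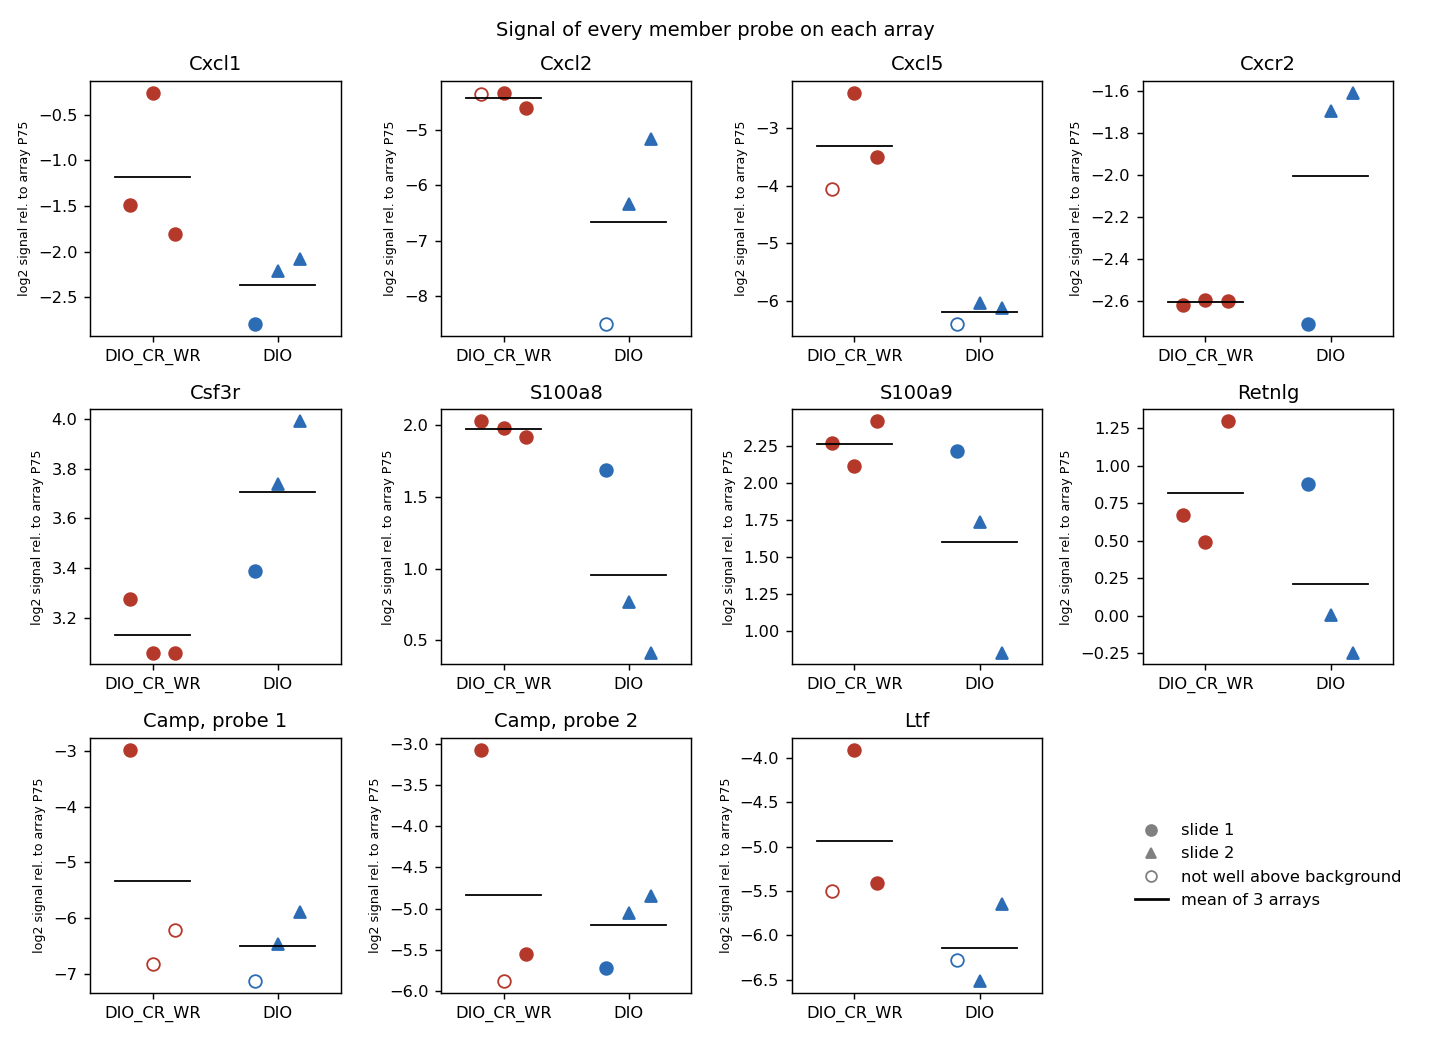
Log2 signal relative to the array's P75 for each of the 11 member probes, DIO_CR_WR on the left and DIO on the right of each panel, 1 point per array, with its own vertical scale in each panel. Circles are slide 1, triangles slide 2, open symbols are not well above background, and lines are means of 3 arrays. For S100a8, S100a9 and Retnlg the DIO array on slide 1 lies above the 2 DIO arrays on slide 2, while for Cxcl1, Cxcl2 and Cxcl5 it is the lowest DIO array.

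The 3 chemokine probes all had a higher signal in DIO_CR_WR fat, with only Cxcl1 well above background on every array. Cxcl5 (probe at chr5:91190490-91190549, mm9, plus strand) had 5.99, 19.3 and 8.84% of P75 in DIO_CR_WR 1, 2 and 3, against 1.17, 1.52 and 1.43% in DIO 1, 2 and 3. Every DIO_CR_WR value was above the highest DIO value, and DIO_CR_WR 2 stood highest. The lowest of them, on DIO_CR_WR 1, was near that array's lowest signal well above background, 5.79% of P75. The log2 fold change was 2.88 ± 0.42 SE, or 7.36-fold (95% interval of the log2 value 1.87 to 3.89, unadjusted p = 3.45e-04 in limma), with an adjusted p of 0.118. Neither replicate 1 was called well above background, so 2 of 3 arrays of each group measured it. Between arrays of slide 1 the difference was 3.101 (slide as a block in limma, unadjusted p = 0.00408). Leaving out any 1 array gave 2.41 to 3.25.

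Cxcl1 (chr5:91321845-91321904, mm9, plus strand) had 35.8, 83.8 and 28.6% of P75 in DIO_CR_WR 1, 2 and 3, against 14.4, 21.5 and 23.7% in DIO 1, 2 and 3. All 6 arrays measured it well above background. The groups did not overlap, although DIO_CR_WR 3 and DIO 3 lay close together, and as for Cxcl5 the highest value was on DIO_CR_WR 2. This gave a log2 fold change of 1.18 ± 0.43 SE (unadjusted p = 0.0312, adjusted p = 0.161, limma). It was 0.72 without DIO_CR_WR 2 and 1.62 with the slide as a block.

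Cxcl2 (chr5:91334534-91334593, mm9, plus strand) had 4.90, 4.96 and 4.11% of P75 in DIO_CR_WR 1, 2 and 3, against 0.27, 1.24 and 2.77% in DIO 1, 2 and 3. The DIO_CR_WR values were close to each other and the DIO values were spread out. Neither replicate 1 was called well above background, so 2 of 3 arrays of each group measured Cxcl2. The log2 fold change was 2.24 ± 0.78 SE (unadjusted p = 0.0261, adjusted p = 0.152, limma). The size rests on DIO 1, a value at the software's surrogate for signal near background: it was 1.33 without that array, and 1.58 with dim values raised to the lowest signal well above background on their array. With the slide as a block, where DIO 1 is the only DIO array compared, it was 4.08 (unadjusted p = 2.46e-04, adjusted p = 0.35, limma). With the labelled age, itself uncertain, as a covariate it was −0.067, while Cxcl1 and Cxcl5 had 0.88 and 2.24.

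Neither receptor had a higher mean signal in DIO_CR_WR. Cxcr2 (chr1:74206886-74206945, mm9, plus strand), the receptor for all 3 chemokines, had 16.3, 16.6 and 16.5% of P75 in DIO_CR_WR 1, 2 and 3, against 15.3, 30.8 and 32.8% in DIO 1, 2 and 3. The 3 DIO_CR_WR arrays were nearly equal, DIO 1 was just below them and the 2 DIO arrays of slide 2 were well above. The log2 fold change was −0.60 ± 0.31 SE (unadjusted p = 0.0985, adjusted p = 0.262, limma). Within slide 1 it was 0.11 (unadjusted p = 0.564). Cxcr1, the other receptor of this kind, had 0.57 ± 0.83 SE and was well above background on 1 DIO_CR_WR and 2 DIO arrays.

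Csf3r (chr4:125721478-125721537, mm9, plus strand) had 970.3, 834 and 835% of P75 in DIO_CR_WR 1, 2 and 3, against 1049, 1333 and 1589.6% in DIO 1, 2 and 3. Every DIO_CR_WR array was below every DIO array, with DIO 1 nearest to DIO_CR_WR 1. Its log2 fold change was −0.57 ± 0.20 SE (unadjusted p = 0.0274, adjusted p = 0.154, limma), −0.26 with the slide as a block, and −0.071 with the arrays scaled to spike-ins. The second part of this probe, bases 31 to 60 of its 60, is shown because it is a run of the kind found in B1, a repeat scattered through the mouse genome.
Csf3r probe, bases 31 to 60: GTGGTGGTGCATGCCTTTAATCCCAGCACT

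All 30 bases of that run are also in 1 other probe, of the transcript named TC1653005 on the array, and 20 are in the probe of ENSMUST00000131716. These had log2 fold changes of −0.15 (unadjusted p = 0.34) and −0.58 (unadjusted p = 0.0225) in the limma fit over all probes. The other 10 member probes shared at most 14 bases with a probe of another gene. How much of the Csf3r signal comes from repeat-containing RNA was not tested.

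Among the granule and secreted genes, S100a8 had the tightest DIO_CR_WR arrays. S100a8 (chr3:90473778-90473837, mm9, plus strand) had 408, 395 and 378% of P75 in DIO_CR_WR 1, 2 and 3, against 322, 170.1 and 133% in DIO 1, 2 and 3. The groups did not overlap, and DIO 1 came close to DIO_CR_WR. The log2 fold change was 1.02 ± 0.33 SE, 2.03-fold (unadjusted p = 0.019, adjusted p = 0.142, limma). With the slide as a block it was 0.29 (unadjusted p = 0.236), and without DIO 1 it was 1.39 (adjusted p = 0.0262, limma), when each group is on a slide of its own and slide and group cannot be told apart.

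S100a9 (chr3:90496573-90496632, mm9, minus strand), the partner of S100a8 and its neighbour on chromosome 3, had 481, 432 and 533% of P75 in DIO_CR_WR 1, 2 and 3, against 465, 333 and 180.5% in DIO 1, 2 and 3. DIO 1 lay inside the DIO_CR_WR range and DIO 3 was far below it. Its log2 fold change was 0.66 ± 0.35 SE (unadjusted p = 0.103, adjusted p = 0.268, limma), and 0.047 with the slide as a block. Retnlg (chr16:48874468-48874527, mm9, plus strand) had 159, 140.5 and 246% of P75 in DIO_CR_WR 1, 2 and 3, against 184, 100.2 and 84.2% in DIO 1, 2 and 3. It had the same layout, with DIO 1 among the DIO_CR_WR arrays. Its log2 fold change was 0.61 ± 0.36 SE (unadjusted p = 0.135, adjusted p = 0.31, limma), and −0.058 with the slide as a block.

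Ltf (chr9:110942873-110942932, mm9, plus strand) was dim, with 2.21, 6.68 and 2.36% of P75 in DIO_CR_WR 1, 2 and 3, against 1.29, 1.09 and 2.00% in DIO 1, 2 and 3. The groups did not overlap, by a small margin between DIO_CR_WR 1 and DIO 3. Like Cxcl1 and Cxcl5, Ltf was highest on DIO_CR_WR 2. The log2 fold change was 1.21 ± 0.48 SE (unadjusted p = 0.0409, adjusted p = 0.176, limma), 1.34 with the slide as a block (unadjusted p = 0.124) and 0.69 without DIO_CR_WR 2. Neither replicate 1 was well above background.

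Camp was read by 2 probes that share a run of 40 bases (chr9:109749911-109749970 and chr9:109749901-109749950, mm9, minus strand). Probe 1 had 12.7, 0.89 and 1.35% of P75 in DIO_CR_WR 1, 2 and 3, against 0.72, 1.14 and 1.68% in DIO 1, 2 and 3. Probe 2 had 11.9, 1.70 and 2.13% in DIO_CR_WR 1, 2 and 3, against 1.91, 3.02 and 3.47% in DIO 1, 2 and 3. On both probes a single array, DIO_CR_WR 1, was high and the other DIO_CR_WR arrays were within or below the DIO range. The log2 fold changes of 1.16 ± 0.98 SE and 0.37 ± 0.74 SE (unadjusted p = 0.281 and 0.633, adjusted p = 0.477 and 0.773, limma) were −0.019 and −0.51 without DIO_CR_WR 1.

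**Figure D2:**
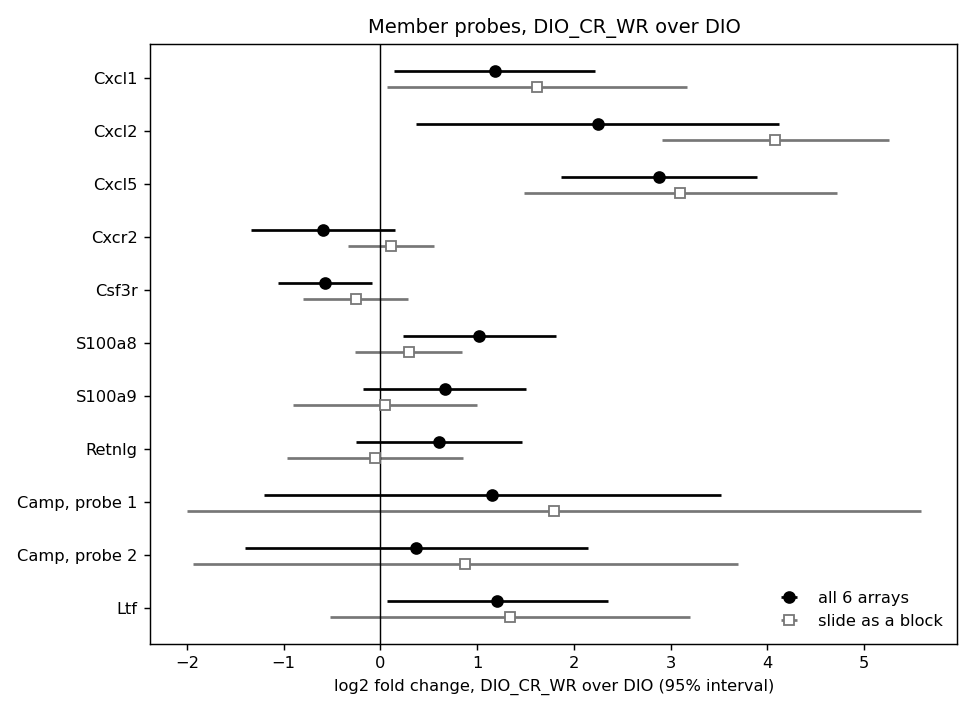
Log2 fold change of each member probe, DIO_CR_WR over DIO, with 95% intervals from limma, for all 6 arrays (filled circles) and for the slide-blocked fit (open squares). The interval of Cxcl1, Cxcl2 and Cxcl5 is above 0 in both fits, and that of S100a8 and Ltf only with all 6 arrays.

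A list of 30 other neutrophil granule and surface genes had 28 tested. Over all probes tested 5.29% were higher and 21% lower by the unadjusted p of 0.05, to be read beside this list and those that follow. By that rule 5 of the 28 genes were higher and 3 lower, while 0 passed the adjusted threshold. Their median log2 fold change was 0.57 (0.32 in the slide-blocked fit, where 3 were higher and 0 lower). Of the 3 lower, Fcnb was well above background on 0 DIO_CR_WR and 3 DIO arrays, so it passed the filter on dim signal through DIO. The other 2, Mpo and Elane, are given below. The 3 genes with the smallest p were higher. Clec4d, a C-type lectin of myeloid cells, had 127, 149 and 183% of P75 in DIO_CR_WR 1, 2 and 3, against 32.9, 31.0 and 58.8% in DIO 1, 2 and 3. Its log2 fold change was 1.95 ± 0.30 SE (unadjusted p = 4.17e-04, adjusted p = 0.118, limma), and 2.20 with the slide as a block. Padi4, which citrullinates histones in neutrophil extracellular traps, had 1.36 ± 0.34 SE, and Chi3l3, a chitinase-like protein shared with macrophages, had 1.62 ± 0.45 SE.

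Of the 4 primary granule enzymes on the list, made early in the bone marrow, 2 had a lower mean in DIO_CR_WR at that p. In log2 fold change, myeloperoxidase (Mpo) had −0.82 ± 0.23 SE and neutrophil elastase (Elane) had −0.84 ± 0.24 SE (unadjusted p = 0.0103 and adjusted p = 0.133 for both, limma). Both were well above background on 1 DIO_CR_WR array and on all 3 DIO arrays, so they passed the filter on dim signal through DIO, and the DIO_CR_WR values are mostly near the detection limit. With the slide as a block their unadjusted p was 0.118 and 0.0746, and detection was poorer on the DIO_CR_WR arrays for probes at large. The serine proteases Prtn3 and Ctsg had 0.81 ± 0.51 SE and −0.28 ± 0.25 SE (unadjusted p = 0.159 and 0.3, limma). The neutrophil surface protein Ly6g had 253, 225 and 251% of P75 in DIO_CR_WR 1, 2 and 3, against 206, 191 and 179.6% in DIO 1, 2 and 3. Its groups did not overlap, and its log2 fold change was 0.34 ± 0.15 SE (unadjusted p = 0.0619, limma). Lipocalin 2 (Lcn2), which adipocytes and macrophages also make, had 0.66 ± 0.36 SE (unadjusted p = 0.116).

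**Figure D3:**
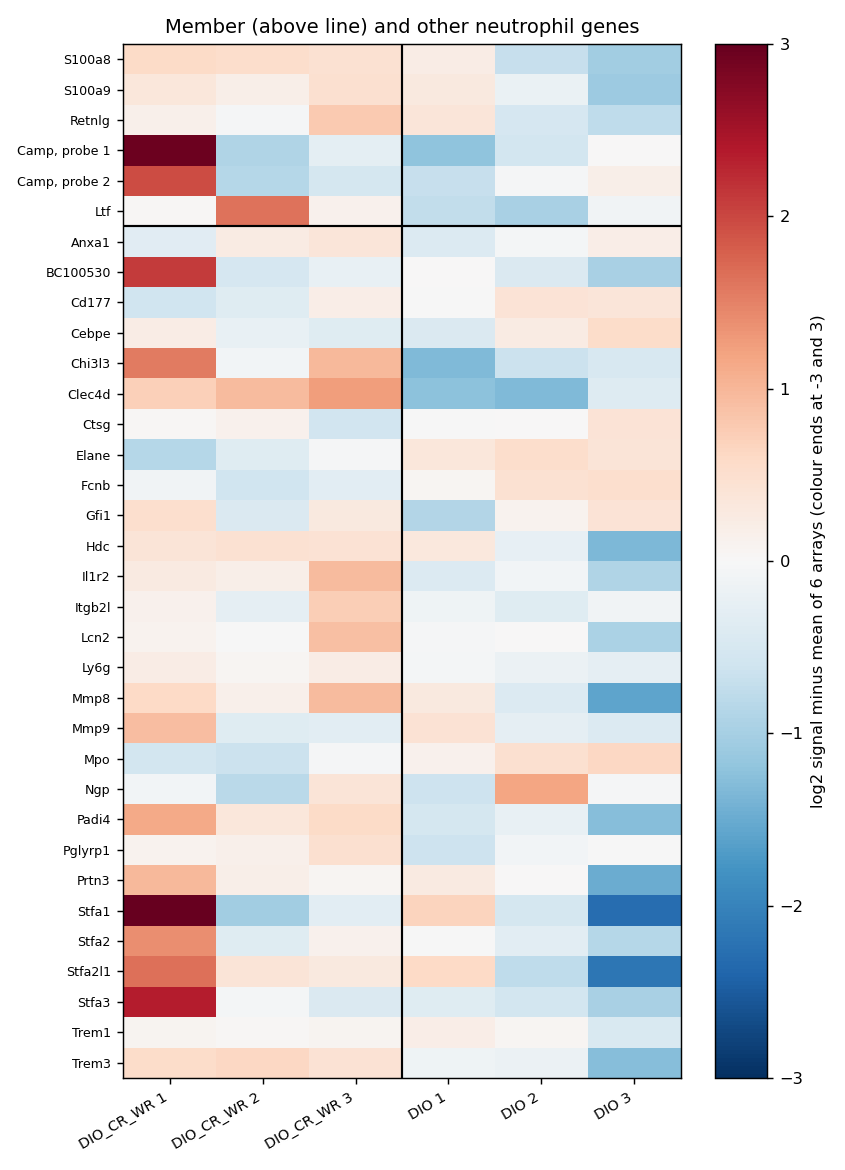
Log2 signal of each gene minus its mean over the 6 arrays, for the granule and secreted members (above the line) and 28 other neutrophil genes (below it), with DIO_CR_WR arrays left of the vertical line and DIO arrays right of it. Camp, Stfa1, Stfa3 and BC100530 are highest on DIO_CR_WR 1, and DIO 3 is the lowest array for S100a8, S100a9, Retnlg and Mmp8.

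A further list held genes that attract, capture or induce neutrophils. Of 19 tested of 27 on the array, 7 were higher and 0 lower by the unadjusted p of 0.05, with a median log2 fold change of 0.57. In the slide-blocked fit 11 were higher and 0 lower, and the median was 0.88. Again 0 passed the adjusted threshold. The interleukin 17 receptor subunit Il17ra, upstream of Cxcl1 and Cxcl5 in many tissues, had 26.9, 33.5 and 31.4% of P75 in DIO_CR_WR 1, 2 and 3, against 16.3, 12.4 and 14.4% in DIO 1, 2 and 3. No array of one group reached the range of the other (log2 fold change 1.09 ± 0.18 SE, unadjusted p = 6.77e-04, adjusted p = 0.118, limma). The formyl peptide receptor Fpr2 had 2.11 ± 0.37 SE, and Icam1, the endothelial ligand on which neutrophils arrest, had 0.67 ± 0.14 SE. Interleukin 1 beta (Il1b), which induces Cxcl1 and Cxcl2, had 42.6, 30.3 and 22.0% in DIO_CR_WR 1, 2 and 3, against 14.7, 14.5 and 15.99% in DIO 1, 2 and 3 (log2 fold change 1.02 ± 0.26 SE, unadjusted p = 0.00647, adjusted p = 0.129, limma). The DIO_CR_WR arrays were spread and the DIO arrays close together, without overlap. Csf3, the ligand of Csf3r, was well above background on 0 DIO_CR_WR and 2 DIO arrays and was not tested.

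Cxcl5, Cxcl1 and Cxcl2 lie on chromosome 5 in a run of chemokine genes whose order in the RefSeq gene table is Cxcl5, Ppbp, Pf4, Cxcl3, Cxcl15, Cxcl1 and Cxcl2. The platelet chemokines next to Cxcl5 did not pass the unadjusted threshold: the log2 fold change of Ppbp was 0.50 ± 0.28 SE (unadjusted p = 0.115, and 0.0065 between arrays of slide 1) and that of Pf4 was 0.15 ± 0.16 SE (unadjusted p = 0.39, limma). Whether these differ from their neighbours was not tested. Cxcl3 had 1.62, 1.80 and 0.82% of P75 in DIO_CR_WR 1, 2 and 3, against 0.30, 0.51 and 0.21% in DIO 1, 2 and 3, but was not well above background on any array, so no fold is given. Cxcl15 was likewise below that limit on every array.

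**Figure D4:**
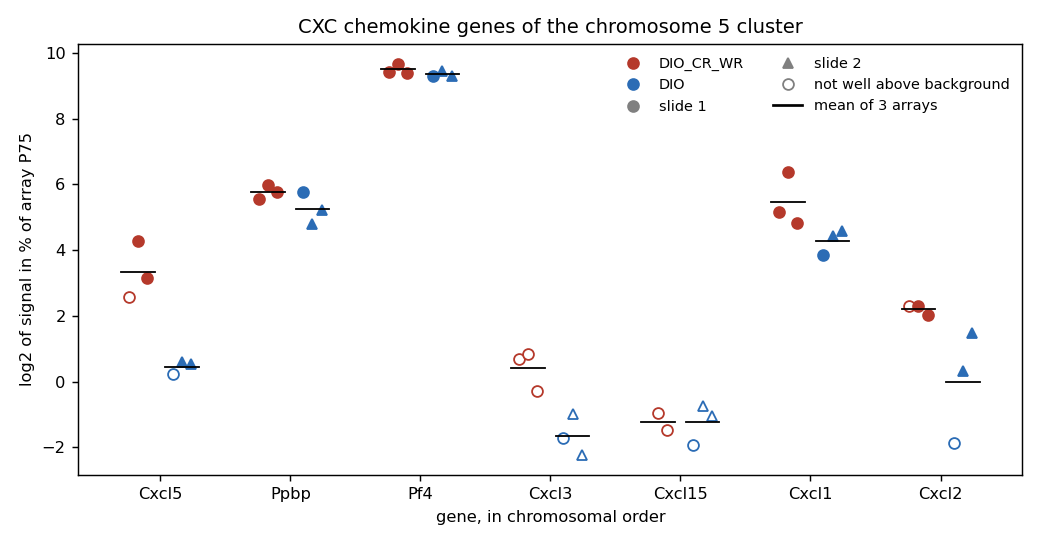
Log2 of the signal in percent of the array's P75 for the 7 chemokine genes of the chromosome 5 cluster, in chromosomal order, DIO_CR_WR left of DIO for each gene, 1 point per array. Symbols are as for the member probes, Cxcl15 has 1 DIO_CR_WR array left out for an outlier flag, and heights of different genes are not comparable. Cxcl5, Cxcl1 and Cxcl2 show no overlap between groups, nor does Cxcl3, which is well above background on no array. Ppbp and Pf4 overlap.

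Of 8 tested CXC chemokines that are not members and act mainly on other cells, Pf4 of this cluster among them, 4 were higher and 0 lower by the unadjusted p of 0.05. Their median was 0.45. Cxcl13, which draws B cells, had 1.70 ± 0.39 SE, the interferon-induced Cxcl10 had 1.85 ± 0.44 SE and Cxcl14 0.93 ± 0.30 SE. In the slide-blocked fit 1 of the 8 was higher, and these 3 missed the threshold (unadjusted p = 0.0563, 0.0794 and 0.0959, limma). Genes known to be induced with Cxcl1 and Cxcl2 through NF-kB had 4 higher and 1 lower of 15, with a median of 0.42 (4 and 1 in the slide-blocked fit). The acute phase protein Saa3 (1.73 ± 0.34 SE), the monocyte chemokine Ccl7 (1.42 ± 0.31 SE) and Il6 (1.07 ± 0.23 SE) had the smallest p of these, and the 1 lower was Nfkbia, the inhibitor of NF-kB, at −0.42 ± 0.16 SE. Il6 was dim, with 2.52, 3.77 and 3.14% of P75 in DIO_CR_WR 1, 2 and 3, against 1.88, 1.33 and 1.29% in DIO 1, 2 and 3. It was well above background on 2 DIO_CR_WR and 3 DIO arrays. Receptors and relatives of S100a8 and S100a9 had 1 higher and 2 lower of 14, with a median of −0.17 (1 and 1 in the slide-blocked fit). Tlr4 had 110.2, 121 and 128% of P75 in DIO_CR_WR 1, 2 and 3, against 72.4, 30.8 and 22.1% in DIO 1, 2 and 3, with DIO 1 again nearest to DIO_CR_WR. Its log2 fold change was 1.70 ± 0.43 SE (unadjusted p = 0.00605, limma), and 0.72 with the slide as a block. The fatty acid transporter Cd36, which in human cells binds calprotectin with its lipid cargo, had −0.66 ± 0.15 SE, and Bsg, described as a receptor for S100A9 on human cells, −0.56 ± 0.15 SE. In none of these lists did a gene pass the adjusted threshold. Over all probes tested 5.29% were higher and 21% lower by the unadjusted p of 0.05 (limma).

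Markers of other cells were measured beside these genes. Their counts are to be read against all probes tested, of which 5.29% were higher and 21% lower by the unadjusted p of 0.05 (limma). B and T cell markers were higher at an unadjusted p under 0.05 for 3 of 5 tested (Cd3g 1.60 ± 0.38 SE, Cd3d 1.69 ± 0.46 SE and Cd8a 1.41 ± 0.42 SE), with a summed signal over the tested genes of 67.8 to 147% of P75 in DIO_CR_WR and 25.8 to 68.1% in DIO, 3 stayed higher in the slide-blocked fit, and Cd79a missed the filter on dim signal. Macrophage and monocyte markers were higher for 2 of 8 (Plac8 1.27 ± 0.25 SE and Mrc1 0.67 ± 0.15 SE), with Ccr2 at 0.31 ± 0.19 SE, Emr1 at 0.42 ± 0.26 SE and sums of 5993 to 6450.0% in DIO_CR_WR and 5055 to 6852% in DIO. In the slide-blocked fit 4 of the 8 were higher, among them Emr1 (0.83, unadjusted p = 0.0285) and Ccr2 (0.60, unadjusted p = 0.0272). Muscle markers were lower for 2 of 6 (Ckm −0.54 ± 0.16 SE and Myh4 −0.43 ± 0.16 SE, with Myh1 at −0.96 ± 0.67 SE) and for 0 in the slide-blocked fit, and they were bright on all 6 arrays, with sums of 8179 to 11353.5% in DIO_CR_WR and 11548 to 14120.2% in DIO. Platelet markers were lower for 2 of 7 and higher for 0, with sums of 776 to 938% in DIO_CR_WR and 743 to 821% in DIO. Of the 2 lower, Gp6 was well above background on 0 DIO_CR_WR and 3 DIO arrays and so passed the filter through DIO. The other, Gp1bb, was well above background on all 6 arrays. With the slide as a block, the log2 fold change of Gp6 went from −1.25 to −0.62 and that of Gp1bb from −0.78 to −0.50. That of Gp1ba, not among these 2, went from −0.38 to −0.95. Red blood cell markers were higher for 1 and lower for 1 of 6 (1 and 0 in the slide-blocked fit), with sums of 4252 to 5992% in DIO_CR_WR and 4883 to 5490.0% in DIO. Epithelial markers had 1 of 6 lower, Cdh1, which was well above background on 0 DIO_CR_WR and 3 DIO arrays and so passed the filter through DIO. Its unadjusted p was 0.128 with the slide as a block. Krt1, Krt8 and Elf5 missed the filter, and sums were 103.5 to 132% in DIO_CR_WR and 110.05 to 119% in DIO. Markers of fat progenitors and fibroblasts were higher for 1 of 7 (0 in the slide-blocked fit), with sums of 6744 to 7823% in DIO_CR_WR and 6131 to 9724% in DIO. A sum mostly follows its brightest probes and is no measure of the number of cells. In the platelet sums Pf4 alone had 692, 821 and 669% in DIO_CR_WR 1, 2 and 3, and 630, 705 and 630% in DIO 1, 2 and 3. In the epithelial sums Krt10 alone had 94.1, 104 and 73.2% in DIO_CR_WR 1, 2 and 3, and 90.8, 68.4 and 48.7% in DIO 1, 2 and 3. The part of these cells in the chemokine and granule values was not tested.

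The profiles most like that of Cxcl5 over the 6 arrays were Asah1 (Pearson r = 0.994), Prcp (0.992), Atxn7l1 (0.992), Layn (0.990) and Fyb (0.988), among 12841 genes bright on all arrays. For S100a8 they were Scai (0.998), Nod2 (0.998), Abhd6 (0.998), Adam10 (0.998) and Wipf1 (0.997), among 12840 genes. With 6 points high values are common: 314 genes exceeded 0.9 with Cxcl5 and 1024 with S100a8. The 2 lists of 5 share no gene. All arrays of a slide share that slide, so these values are a description.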

How the data were processed

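Groups follow the sample titles, and 1 array was made per sample on design 028005. The authors deposited spot intensity values: per the file headers, the software took away a spatially fitted local background, evened out brightness across each array and put surrogate values in place of signal near background, with no normalization between arrays. The deposited files also hold the raw mean and local background intensity, and, for each spot, 0/1 flags that mark saturation, outliers and signal well above background. The submitters' processing notes give Agilent Feature Extraction 10.7.1.1 and the file headers 10.7.3.1.

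From these, log2 of the processed intensity minus each array's 75th percentile over non-control probes was computed, after leaving out 3671 control spots of 62976 and outlier-flagged spots and averaging spots of a probe. Probes well above background on at least 3 of 6 arrays and without an outlier flag on any array were tested (38458 of 55681). The test was limma 3.58.1 in R 4.3.3 (lmFit and eBayes, two-sided, no covariate, Benjamini-Hochberg over all 38458). In data simulated at this size, it recovered 3, 29, 37 and 45 of 50 probes changed by a log2 value of 1, 2, 3 and 4. The simulated noise was independent between probes and had no slide differences, so these counts need not hold for the measured arrays. The number of arrays limits precision.

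The slide of each array came from the files. Replicate numbers were not treated as pairs: deviations from group means correlated at 0.00, −0.13 and −0.21 between same-numbered arrays. Members and gene lists were chosen with earlier results of these data known, so no list was tested as a set. Named were all members, at most the 3 genes with the smallest p of each related or marker list, and a fixed few (Il1b, Lcn2, Mpo, Elane, Ly6g, Csf3, Cxcl3, Ppbp, Adipoq and Emr1). Cxcr1, Pf4, Cxcl15, Nfkbia, Prtn3, Ctsg, Fcnb, Krt10, Mmp8, Ms4a1, Stfa1, Stfa3 and BC100530 were named after their values were seen. So were Il17a, Ccl20, Olfm4, Elf5, Il1a, S100a7a and Gp1ba. Lists count 1 probe per gene, the brightest, and some genes are on more than 1 list. Probe positions are on mm9 as in the array files, and promoters are RefSeq's on GRCm38.p6 (9 of the 10 genes matched). The 18 columns of per-sample values in a table of the whole series were not used. Alternatives covered background correction, scaling, filter, probe choice, variance model, slide, age, a signal floor chosen after seeing the data, and leaving out each array.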

Additional observations from a re-analysis of the deposited data

How the results depend on the processing

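Of the member fold changes under the alternatives, 203 kept their direction and side of the adjusted threshold, 7 reversed and 4 newly passed it. These counts are no measure of stability. Other filters, the brightest probe, the variance model and the replicate block cannot change the fold of a tested probe. Averaging the probes of a gene can change only Camp. The slide as a block and slide 1 alone give the same folds, so their reversals are counted in both. With the slide as a block and with slide 1 alone, Cxcr2 had 0.11 and Retnlg −0.058. With the labelled age as a covariate Cxcl2 had −0.067. Leaving out 1 array gave −0.019 to 1.90 and −0.51 to 0.89 for the 2 Camp probes, each lowest without DIO_CR_WR 1. Leaving out DIO 1 put Csf3r (−0.73, adjusted p = 0.0496), Cxcl5 (2.77, adjusted p = 0.0341), Cxcr2 (−0.95, adjusted p = 0.0278) and S100a8 (1.39, adjusted p = 0.0262) past the limma threshold, with group and slide then inseparable. The count of members higher at an unadjusted p under 0.05 was 2 with the filter on all arrays (6 member probes left), 3 with the slide as a block, 2 on slide 1 alone and 1 with age. The count lower was 0 with normexp and quantile, quantile, spike-in scaling, the slide as a block and slide 1 alone. The replicate block, although the numbers do not pair the arrays, gave 4 higher and 0 lower. Leaving out 1 array gave 2 to 5 members higher, 0 to 2 lower and 0 to 4 past the adjusted threshold.

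Over all probes, 6 passed the adjusted threshold with spike-in scaling, 48 with the filter on all arrays, and 0 to 5361 when 1 array was left out (5361 without DIO 1). Higher probes numbered 7986 with spike-in scaling, 7732 with no filter and 1138 to 3372 with 1 array left out. Lower probes numbered 5179 with quantile, 1131 with spike-in scaling, 5372 with the filter on all arrays, 2197 with the slide as a block, 1827 on slide 1 alone, 5278 with the signal floor and 3425 to 10514 with 1 array left out. The cause was not tested. Cxcl2, Cxcl5, Ltf and Camp are limited by signal over background, since some arrays did not measure them.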

Other observations

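Camp was not alone in standing high on a single array. The stefins Stfa1 and Stfa3, cysteine protease inhibitors abundant in mouse neutrophils, and their relative BC100530 had their highest value on DIO_CR_WR 1, as chosen after their values were seen. Stfa1 had 19.2, 0.83 and 1.38% of P75 in DIO_CR_WR 1, 2 and 3, against 2.74, 1.19 and 0.35% in DIO 1, 2 and 3. Stfa3 had 19.2, 3.58 and 2.76% in DIO_CR_WR 1, 2 and 3, against 2.90, 2.54 and 1.91% in DIO 1, 2 and 3. BC100530 had 45.4, 7.41 and 9.00% in DIO_CR_WR 1, 2 and 3, against 10.69, 7.82 and 5.41% in DIO 1, 2 and 3. S100a8, S100a9 and Retnlg, also abundant in neutrophils, did not stand out on that array among the DIO_CR_WR arrays. The B cell gene Ms4a1 was likewise highest there, with 16.1, 3.68 and 2.495% in DIO_CR_WR 1, 2 and 3, against 1.17, 2.64 and 7.46% in DIO 1, 2 and 3.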
